A study of Homo sapiens with 10 samples.

Results

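Ion, phosphate and zinc transporters were described in 10 RNA-seq libraries of Caco-2 cells, a human colon carcinoma line whose cells form a polarized monolayer. The genes were picked by symbol and had to have a protein-coding transcript. They are the members of the solute carrier families SLC4, SLC8, SLC9, SLC12, SLC20, SLC24, SLC26, SLC30, SLC34 and SLC39. The rule used no measured value, but the members were chosen with earlier results of these data known. Of 19655 protein-coding genes in this sense 76 were members, and 48 of the 76 exceeded 3 RPM in 20% or more of the samples, the filter used here (RPM, a gene's reads scaled to a library total of 1e6). All cells came from a monoclonal stable line that carried dCas9-KRAB, a Cas9 protein that does not cut DNA and is joined to a repressor domain. The line was made by lentiviral infection and selected with puromycin. Cells of this line then received, by lentivirus with a hygromycin gene, either an empty guide plasmid (gCtl, 5 libraries) or a guide RNA to the long non-coding RNA LHFPL3-AS2 (g1, 3 libraries, and g2, 2 libraries). The comparisons asked what differed between gCtl and the libraries labelled g1 and g2, pooled as the libraries labelled knockdown (n = 5) or guide by guide.

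Solute carriers of these families move ions and metals across the plasma membrane and the membranes of organelles. In the intestinal epithelium, apical sodium/proton exchangers of SLC9 and chloride/bicarbonate exchangers of SLC26 together absorb salt, while SLC12 cotransporters and SLC4 bicarbonate transporters set the chloride, volume and pH of the cell. SLC20 and SLC34 proteins carry phosphate into cells with sodium, SLC8 and SLC24 proteins export calcium in exchange for sodium, SLC39 (ZIP) proteins bring zinc into the cytosol and SLC30 (ZnT) proteins move it out or into vesicles.

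The libraries were of the QuantSeq type, whose reads start near the polyA tail, and held between 3838803 and 8730468 estimated counts each. The summed level of the 76 genes lay between 1294.6 and 1434.6 RPM in gCtl and between 1210.7 and 1357.6 RPM in the libraries labelled knockdown, so the ranges overlapped. The labels give no replicate numbers and do not say whether the libraries of a group came from separate cultures, so p-values measure the spread between these libraries, which may be technical. LHFPL3-AS2 itself was at 1.66, 0.805, 3.61, 1.67 and 3.11 CPM in gCtl (CPM, which is RPM after TMM normalization), at 2.94, 3.88 and 2.16 CPM in g1, and at 2.37 and 6.40 CPM in g2. The targeted RNA was thus not lower in the libraries labelled knockdown (log2 fold change 0.61, standard error 0.42, adjusted p = 0.381), and every direction below rests on the labels. Its level was low in every library, between 0.805 and 6.40 CPM, which limits this comparison. By qPCR normalized to GAPDH, the paper reports a reduction of LHFPL3-AS2 with both guides. Of 12 markers of the intestinal epithelium 10 were tested, 0 were called in the libraries labelled knockdown (3 had an unadjusted p under 0.05, and DESeq2 called 0), and their sum over the 12 lay between 1978 and 2489 CPM in gCtl and between 1914 and 2533 CPM in the libraries labelled knockdown. With g2, KRT18 was lower and KRT20 and CDH17 were higher. The brush border markers SI and ALPI stayed below the filter. SI, sucrase-isomaltase, was at 0 to 0.349 CPM in gCtl, 1.27 to 3.04 CPM in g1 and 1.02 to 1.79 CPM in g2, so that both guides lay above gCtl. ALPI was at means of 0.469, 0.292 and 0.252 CPM in gCtl, g1 and g2. Of 5 fibroblast, 4 immune and 3 endothelial markers, 1, 2 and 1 were tested, and VWF, PTPRC and COL3A1 were at or near 0. LYZ of the immune list was at means of 13.9, 19.3 and 22.1 CPM and COL1A1 of the fibroblast list at 5.12, 5.59 and 4.14 CPM in gCtl, g1 and g2, and neither was called. CD14 was lower in the libraries labelled knockdown and PECAM1 higher in g1, and their part in the results was not tested.

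Which of these genes the cells expressed differed by family. Both SLC20 genes passed the filter, as did 8 of 10 SLC30, 11 of 14 SLC39, 6 of 9 SLC9, 6 of 9 SLC12, 6 of 10 SLC4 and 3 of 5 SLC24 genes. Only 4 of 11 SLC26 genes, 1 of 3 SLC8 and 1 of 3 SLC34 genes did. Of the 48 that passed, 37 were above 3 RPM in all 10 libraries. SLC26A3 passed only through g1 libraries and SLC39A13 only through gCtl libraries, so that both had to differ between groups to some degree. The 28 genes that did not pass reached at most 3.66 RPM in any library, 13 of them had at most 10 counts over all libraries and 4 had none (SLC9A9, SLC34A3, SLC39A2 and SLC39A12). Several transporters known from the small intestine or the kidney were among the undetected or barely detected ones. SLC9A3, the apical sodium/proton exchanger NHE3 of absorptive enterocytes, had 1 count in all. SLC34A1, the phosphate transporter of the kidney proximal tubule, also had 1 count. SLC30A10, a manganese exporter, had 79 counts and passed 3 RPM in 1 library.

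**Figure D1:**
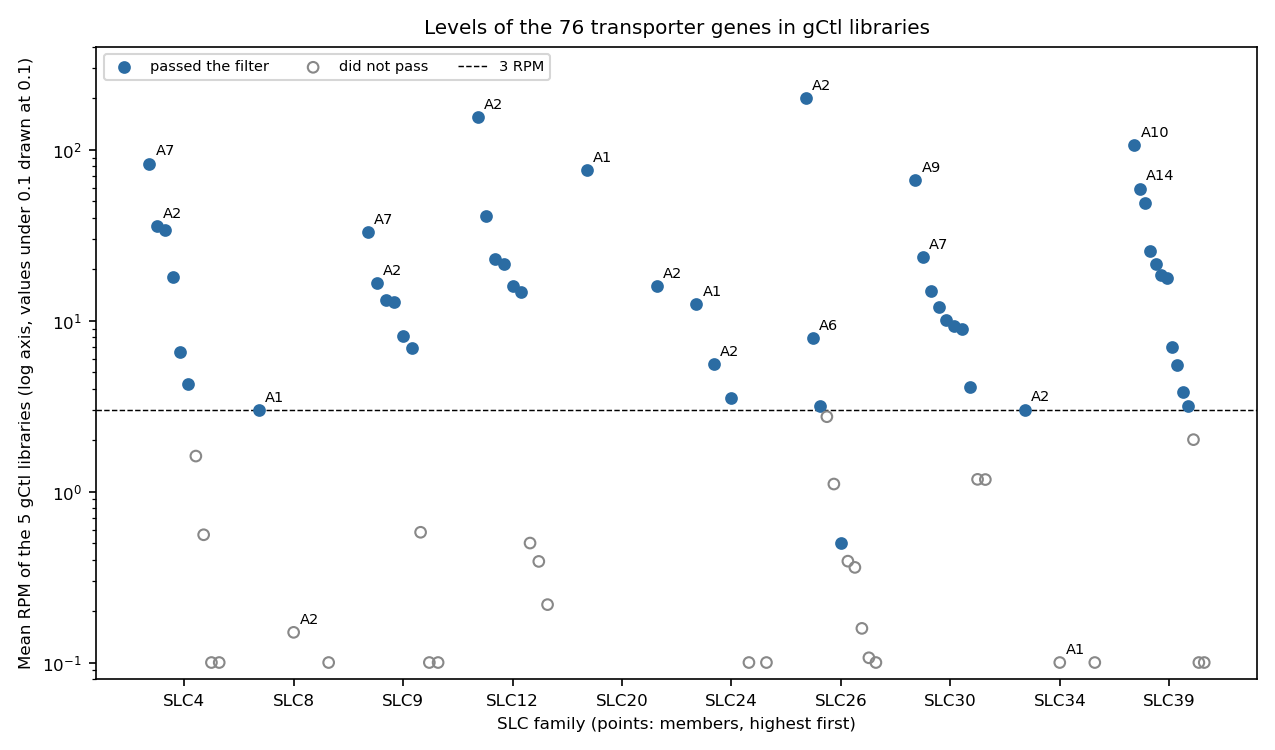
Mean RPM over the 5 gCtl libraries (log axis) of each of the 76 genes, grouped by family, with filled points for the 48 that passed the filter, open points for the 28 that did not, and a dashed line at 3 RPM. RPM is not divided by transcript length, so points should be read against the line; SLC26A3 is the filled point in SLC26 that lies below the line, at 0.499 RPM.

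Per transcript length, the highest mean levels in gCtl were 113.3 TPM for SLC20A1, 102.1 TPM for SLC4A2, 91.5 TPM for SLC12A2, 75.1 TPM for SLC4A7 and 67.1 TPM for SLC39A10. TPM is a length-corrected share of counts, and a short leading transcript raises it. The counts of SLC4A2 lay to 96.5% on an annotated transcript of 442 bases and those of SLC20A1 to 34.8% on one of 613 bases. On the RPM scale, which QuantSeq reads leave independent of length, SLC26A2 stood at 201.4 RPM in gCtl, SLC12A2 at 155.6 RPM and SLC39A10 at 107.0 RPM. SLC26A2 carries sulfate and SLC12A2 is NKCC1, the basolateral sodium-potassium-chloride cotransporter that loads cells with chloride for secretion.

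In the libraries labelled knockdown, 10 of the 48 tested genes were called lower than gCtl (20.8%) and 5 higher (10.4%), where a call needs a 1.5-fold difference and an adjusted p no higher than 0.05 in edgeR's quasi-likelihood test with Benjamini-Hochberg adjustment over 11640 genes. Over all tested genes 11.0% were called lower and 8.14% higher. The lower genes reported here by name were SLC4A2, SLC4A8, SLC9A7, SLC9A8, SLC12A4, SLC12A7, SLC39A1, SLC39A11 and SLC39A13, and the 5 higher genes were SLC4A1, SLC4A5, SLC20A1, SLC26A3 and SLC39A4. These counts include SLC26A3 and SLC39A13, which passed the filter only through libraries of the group in which they were high. In 6 of the 48 the ranges of the 2 groups did not overlap and the libraries labelled knockdown were lower (12.5%, against 8.36% of all tested genes), and in 3 they were higher (6.25%, against 7.08%). The median log2 fold change was -0.01 over the 48 and 0.02 over all genes tested. In bulk RNA, fewer cells that express a gene and less of its RNA per cell cannot be told apart.

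With g1 alone, 7 genes were called lower and 4 higher (14.6% and 8.33%, against 9.91% and 6.81% of all genes tested). With g2 alone, 11 were called lower and 9 higher (22.9% and 18.8%, against 13.0% and 10.7%). With each library scaled to its total instead of by TMM, g2 gave 15 lower and 7 higher, and the median of all genes moved from -0.00 to -0.16. The g2 calls rested in part on its second library, without which 4 were lower and 4 higher, and the g1 calls fell to 7 without gCtl replicate 1 or g1 replicate 2. Tested against each other, g2 differed from g1 in 3 genes, 1 lower and 2 higher (2.08% and 4.17%, against 3.42% and 1.55% of all genes tested). By library totals that comparison gave 3 lower and 1 higher. Because g1 and g2 were compared with the same gCtl libraries, their values are given side by side and their likeness is not counted as a result.

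**Figure D2:**
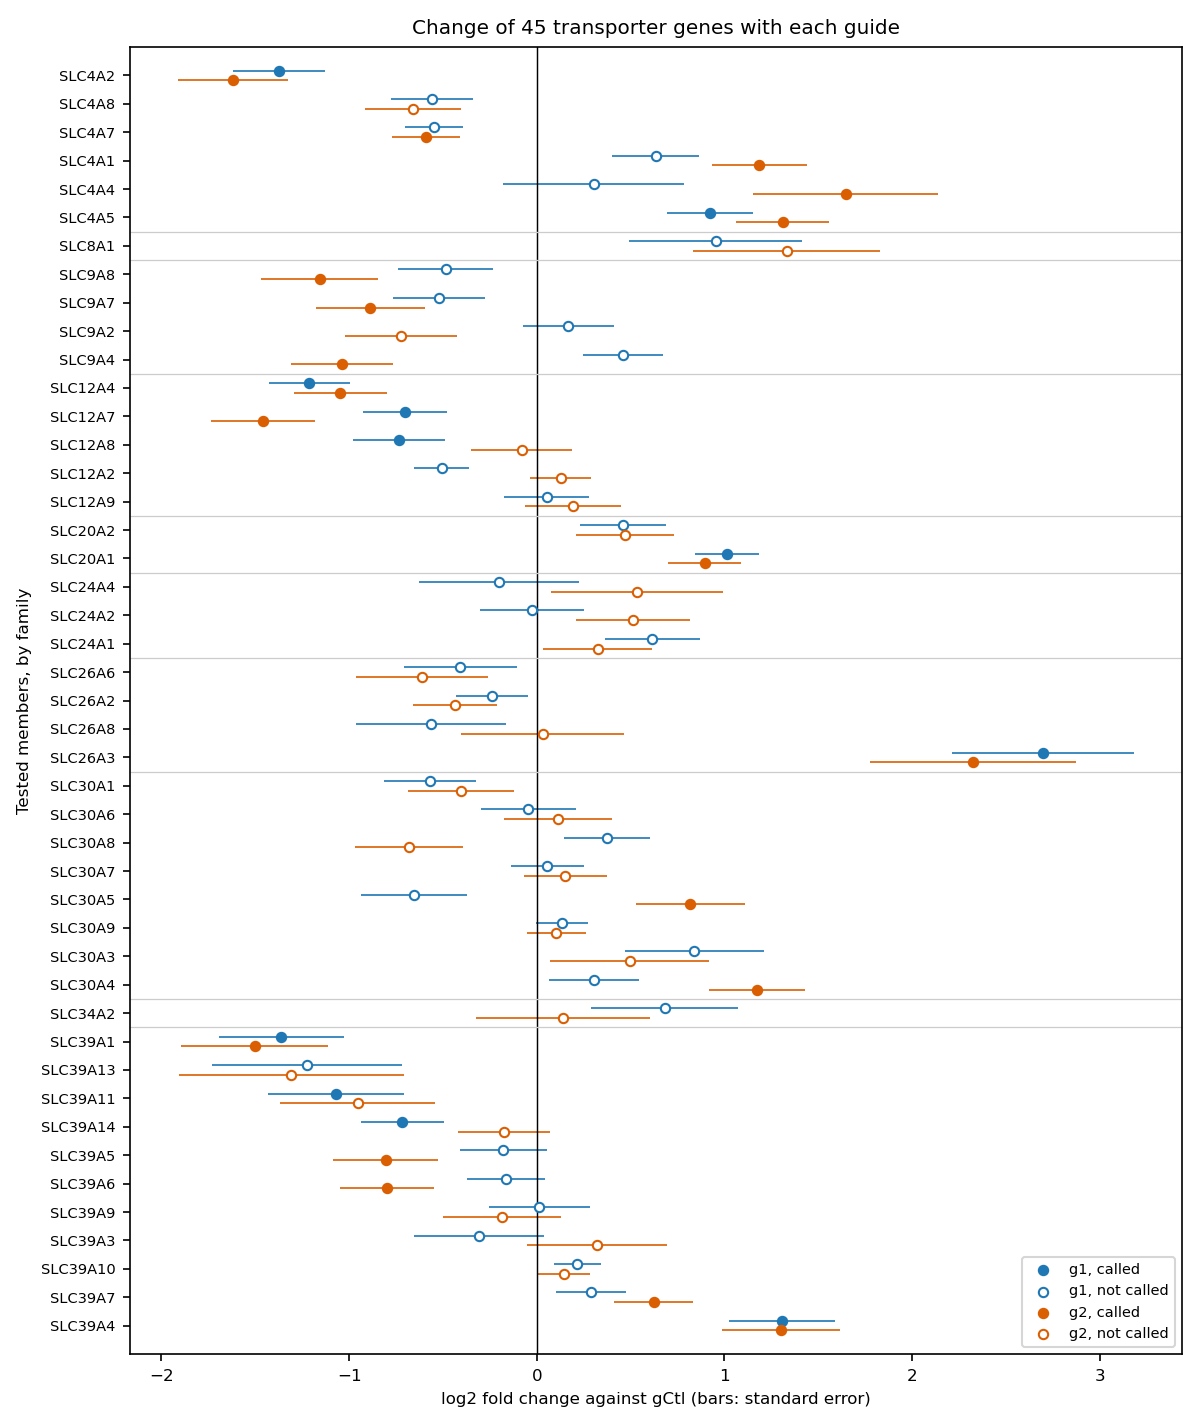
Log2 fold change against gCtl (x axis, bars are standard errors) of 45 of the 48 tested genes, grouped by family, for g1 (blue) and g2 (orange), with filled points for called genes. The point farthest to the right is SLC26A3 with g1, at 2.70, and the point farthest to the left is SLC4A2 with g2, at -1.62.

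Promoter windows are shown for 4 genes that were called with both guides in the same direction, SLC20A1 and SLC26A3 (higher) and SLC4A2 and SLC12A4 (lower). Each holds 250 bases before and 50 bases from the RefSeq gene start on GRCh38.p14, read 5′ to 3′ on the strand of the gene. They lie at chr2:112645689-112645988 (plus strand), chr7:107803174-107803473 (minus strand), chr7:151057950-151058249 (plus strand) and chr16:67968645-67968944 (minus strand). Capitals mark matches, on either strand, of 3 motifs chosen after the values were seen. These were the core of the metal response element that the zinc sensor MTF1 binds (TGCACNC or TGCGCNC), the core bound by CDX factors of the intestinal epithelium (TTTATG) and the core bound by TCF/LEF factors (CTTTGA).
SLC20A1: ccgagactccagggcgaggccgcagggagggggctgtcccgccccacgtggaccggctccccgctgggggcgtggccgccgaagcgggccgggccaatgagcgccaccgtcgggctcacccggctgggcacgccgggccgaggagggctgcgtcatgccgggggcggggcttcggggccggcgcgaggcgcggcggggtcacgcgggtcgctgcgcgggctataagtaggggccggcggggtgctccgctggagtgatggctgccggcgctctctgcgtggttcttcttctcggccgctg
SLC26A3: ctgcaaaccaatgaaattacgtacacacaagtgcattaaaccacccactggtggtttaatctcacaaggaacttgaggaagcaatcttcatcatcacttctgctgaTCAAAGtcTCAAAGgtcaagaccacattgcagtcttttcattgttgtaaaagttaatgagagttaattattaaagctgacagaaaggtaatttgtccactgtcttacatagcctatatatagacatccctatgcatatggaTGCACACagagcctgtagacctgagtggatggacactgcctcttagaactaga
SLC4A2: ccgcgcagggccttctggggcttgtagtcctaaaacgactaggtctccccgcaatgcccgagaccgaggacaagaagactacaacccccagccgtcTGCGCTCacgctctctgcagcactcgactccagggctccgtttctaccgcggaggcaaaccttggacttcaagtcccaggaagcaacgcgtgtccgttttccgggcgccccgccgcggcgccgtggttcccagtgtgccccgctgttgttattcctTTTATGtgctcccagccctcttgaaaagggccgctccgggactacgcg
SLC12A4: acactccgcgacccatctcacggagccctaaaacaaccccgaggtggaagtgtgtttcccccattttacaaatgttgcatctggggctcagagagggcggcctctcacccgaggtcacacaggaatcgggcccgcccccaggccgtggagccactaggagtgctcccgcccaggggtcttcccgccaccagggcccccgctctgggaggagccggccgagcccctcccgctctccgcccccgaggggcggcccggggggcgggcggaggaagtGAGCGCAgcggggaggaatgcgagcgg
The SLC20A1 window held 0 matches. In the SLC26A3 window a pair of TCF/LEF cores began 144 and 136 bases before the start, and a metal response core spanned the start. In the SLC4A2 window a metal response core began 154 bases before the start and a CDX core began 2 bases after it. In the SLC12A4 window the only match was a metal response core, 23 bases after the start, and no matches of different motifs overlapped in these windows. A window was found for 62 of the 76 genes and for 40 of the 48 tested. Of these 40, 17 held the metal response core, 3 the CDX core and 3 the TCF/LEF core, and of 35116 promoter windows of all genes 29.6%, 10.6% and 12.9% did. A match is a description of the letters and was not tested as a binding site.

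Among the chloride/bicarbonate exchangers, SLC26A3 was higher and SLC4A2 lower with both guides. SLC26A3 (ENSG00000091138.12, chr7:107765467-107803225, minus strand) is DRA, the apical exchanger of colonic enterocytes whose loss causes congenital chloride diarrhoea. It was at 0.50, 0.551, 0.698, 0.481 and 0.176 CPM in gCtl, at 3.17, 2.11 and 4.26 CPM in g1, and at 2.51 and 2.47 CPM in g2. No library labelled knockdown overlapped the gCtl range, at low counts throughout (12 counts over gCtl, 64 over g1 and 31 over g2). The log2 difference was 2.56 (standard error 0.44), with 2.70 (standard error 0.49) for g1 and 2.32 (standard error 0.55) for g2. Since the gene passed the filter only through 2 g1 libraries, these are given as a description, and in the edgeR fit without a filter on low counts it was 2.56 (standard error 0.48, adjusted p = 0.00109). The brush border marker SI, below the filter and not tested, was at higher CPM in the same libraries. ALPI, also below the filter, had means of 0.469 CPM in gCtl, 0.292 CPM in g1 and 0.252 CPM in g2. Its gCtl range of 0 to 0.918 CPM covered the libraries of both guides. VIL1, FABP2 and APOA1 of that marker list were not called in any comparison. The part of these markers in the SLC26A3 difference was not tested. Of the SLC26A3 counts 68.6% lay on a transcript annotated for nonsense-mediated decay that ends at the 3′ end of the gene, and 19.2% on protein-coding transcripts. On protein-coding transcripts alone the gene did not pass the filter.

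SLC4A2 (ENSG00000164889.12, chr7:151057210-151076527, plus strand) is AE2, the widely expressed basolateral anion exchanger. It was at 35.1, 34.1, 36.0, 47.7 and 19.8 CPM in gCtl, at 16.7, 11.5 and 11.8 CPM in g1, and at 11.7 and 10.8 CPM in g2. Every library labelled knockdown lay below every gCtl library, and gCtl replicate 5 lay nearest to them. The libraries labelled knockdown differed from gCtl by -1.47 on the log2 scale (standard error 0.21, adjusted p = 0.000377), with -1.37 (standard error 0.25) for g1 and -1.62 (standard error 0.29) for g2. Nearly all of its counts were on the 442-base transcript named above, which is annotated as a retained intron and ends 3 bases from the 3′ end of the gene, and 3.25% were on protein-coding transcripts, on which alone it did not pass the filter. AC010973.2 lies on the opposite strand at that end, the sum of the SLC4A2 counts was not whole in any of the 10 libraries, and without the strand setting of the counting, which was not given in the sources used here, reads of both genes cannot be told apart. SLC4A1, band 3 of red cells and of acid-secreting kidney cells, was at 20.9, 24.6, 47.4, 31.9 and 39.1 CPM in gCtl, at 36.5, 53.4 and 63.5 CPM in g1, and at 70.4 and 79.7 CPM in g2. The g1 libraries overlapped gCtl and the g2 libraries lay above both. It was called in the libraries labelled knockdown (log2 fold change 0.88, standard error 0.23, adjusted p = 0.013) and with g2 (1.19, standard error 0.25, adjusted p = 0.0036), and its counts were not whole in any of the 10 libraries, as happens when reads are divided between genes.

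The other tested SLC26 genes were not called in any comparison. SLC26A2, the sulfate transporter, was at 211, 217, 192, 188 and 167 CPM in gCtl, at 176, 215 and 105 CPM in g1, and at 163 and 125 CPM in g2. SLC26A6, the apical anion exchanger PAT1, was at 8.75, 7.90, 8.20, 6.26 and 7.04 CPM in gCtl, at 3.50, 5.49 and 8.04 CPM in g1, and at 6.28 and 3.78 CPM in g2. The libraries labelled knockdown overlapped gCtl for both genes, with log2 fold changes of -0.31 (standard error 0.17, adjusted p = 0.199) for SLC26A2 and -0.49 (standard error 0.26, adjusted p = 0.185) for SLC26A6.

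Sodium-coupled bicarbonate transporters did not share a direction. SLC4A5, the electrogenic cotransporter NBCe2, was at 4.32, 6.80, 6.74, 6.5 and 7.55 CPM in gCtl, at 11.3, 14.4 and 11.1 CPM in g1, and at 14.1 and 17.8 CPM in g2. All 5 libraries labelled knockdown were above gCtl (log2 fold change 1.09, standard error 0.22, adjusted p = 0.00269), and it was called higher with each guide. Only 2.32% of its counts lay on protein-coding transcripts and 74.7% on a transcript without a coding annotation at the 3′ end of the gene, where MTHFD2 lies on the opposite strand, and reads of these 2 genes cannot be told apart either. On log2(TPM + 1) with limma the change of SLC4A5 was 0.33 and was no longer called (adjusted p = 0.395). SLC4A4, the basolateral cotransporter NBCe1, was at 5.75, 2.94, 3.66, 5.54 and 2.64 CPM in gCtl, at 10.7, 2.53 and 1.83 CPM in g1, and at 14.9 and 10.5 CPM in g2. The g1 libraries lay on both sides of the gCtl range, while both g2 libraries lay above it (log2 fold change 1.65, standard error 0.49, adjusted p = 0.0229). That call was lost without either g2 library and without gCtl replicate 2 (adjusted p = 0.0519).

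SLC4A7 and SLC4A8, electroneutral sodium bicarbonate transporters, were each called lower in 1 comparison. SLC4A7 was at 77.2, 67.8, 87.2, 73.6 and 96.9 CPM in gCtl, at 57.5, 61.2 and 47.0 CPM in g1, and at 59.0 and 48.1 CPM in g2, with no overlap between gCtl and either guide. The difference was near the 1.5-fold limit, which it passed for g2 alone (log2 fold change -0.59, standard error 0.18, adjusted p = 0.0246) and not for g1 (-0.55, standard error 0.16, adjusted p = 0.021). The g2 call of SLC4A7 was kept in 13 of 21 alternatives. It was lost with DESeq2, where the change was -0.58, and without g2 replicate 2 (-0.45). On protein-coding transcripts alone, which held 35.2% of its counts, it was lost too (-0.79, adjusted p = 0.0699). SLC4A8 was at 14.4, 15.7, 16.1, 19.1 and 22.2 CPM in gCtl, at 10.7, 10.2 and 14.6 CPM in g1, and at 9.08 and 12.9 CPM in g2. Its highest g1 library reached the lowest gCtl library, and it was called in the libraries labelled knockdown (-0.60, standard error 0.19, adjusted p = 0.0318) but not with either guide alone. That call was lost in 8 of 20 alternatives, 6 of which left out a single library (gCtl replicate 3, 4 or 5, g1 replicate 1 or 2, or g2 replicate 1, adjusted p between 0.0507 and 0.0772), and the value was -0.23 on protein-coding transcripts alone (adjusted p = 0.563).

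**Figure D3:**
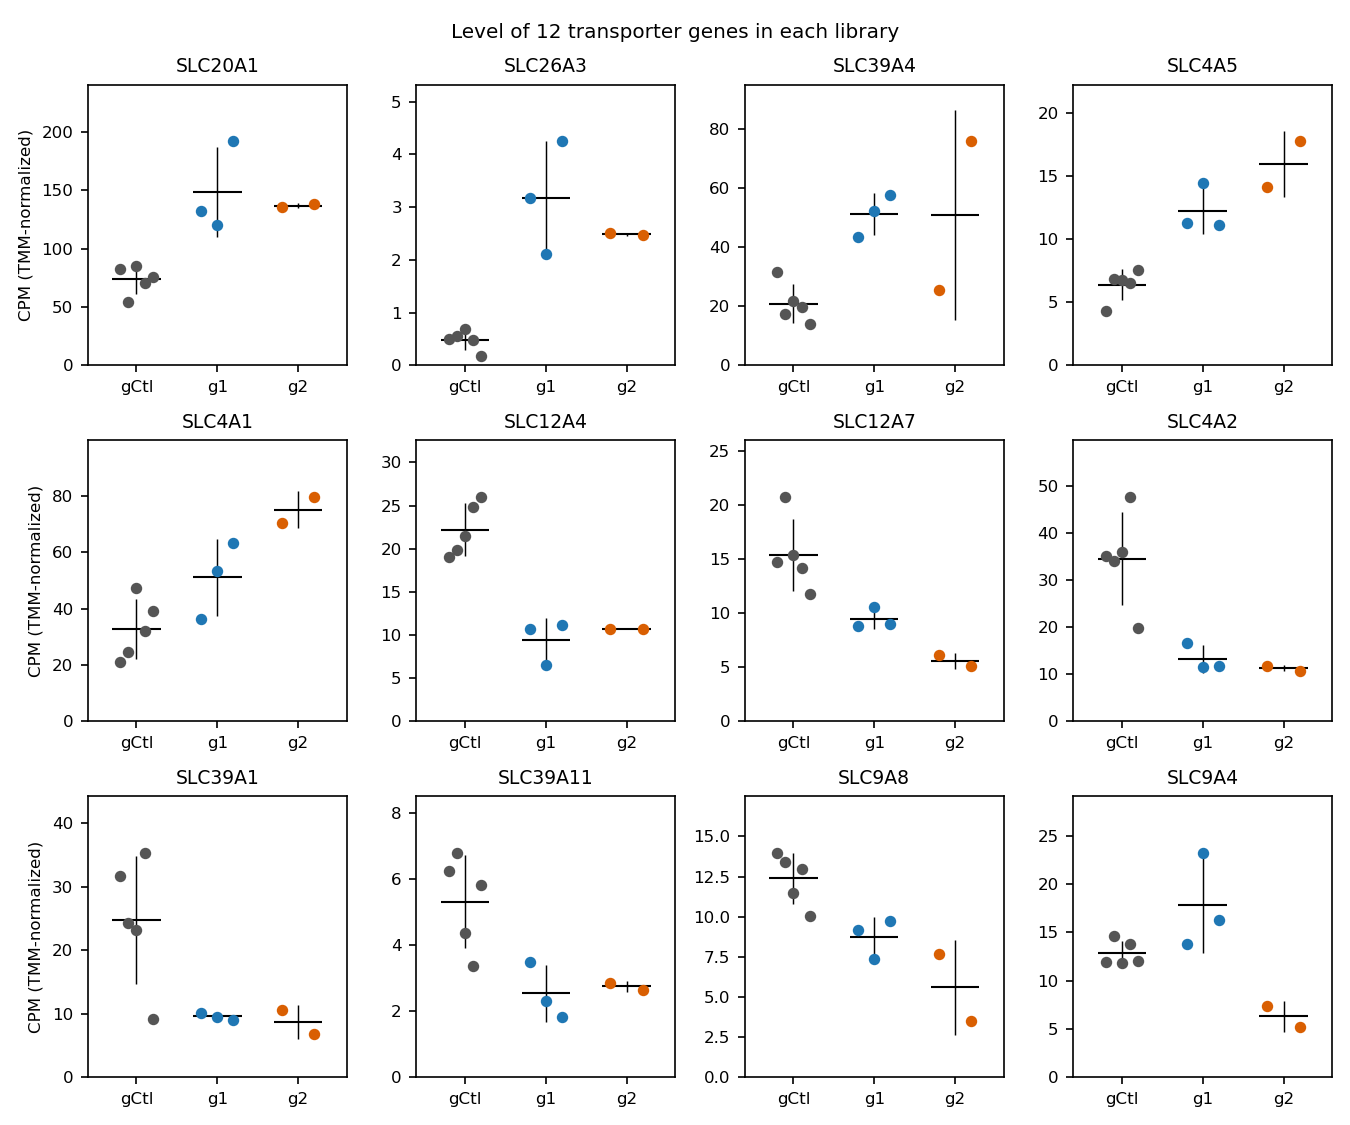
CPM after TMM normalization (y axis, from 0) of 12 genes in each library of gCtl (grey, n = 5), g1 (blue, n = 3) and g2 (orange, n = 2), with horizontal lines at group means and vertical lines of 1 SD to each side. The upper row and SLC4A1 show higher levels in g1 or g2, the other genes lower ones in g1, g2 or both, and for SLC39A4 the g2 libraries stand apart from each other at 25.7 and 76.1 CPM.

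Sodium/proton exchangers of SLC9 export protons and take up sodium at the plasma membrane or set the pH of organelles. Of the 6 tested, 3 were lower in the libraries labelled knockdown, 0 were higher, and the median log2 fold change was -0.69, where 11.0% of all tested genes were called lower. With g2, 4 were lower (median -0.99), against 13.0% of all tested genes. With g1, 0 were called by edgeR (median -0.46), 3 had an unadjusted p under 0.05 and DESeq2 called 1. SLC9A7 and SLC9A8, exchangers of organelles, were among those called lower in the libraries labelled knockdown. SLC9A8, NHE8 of the Golgi and the apical membrane, was at 14.0, 13.4, 11.5, 13.0 and 10.03 CPM in gCtl, at 9.16, 7.39 and 9.74 CPM in g1, and at 7.71 and 3.49 CPM in g2. All libraries labelled knockdown lay below gCtl (log2 fold change -0.72, standard error 0.25, adjusted p = 0.0475). SLC9A7, NHE7 of the trans-Golgi network, was at 22.3, 37.9, 33.5, 27.6 and 38.3 CPM in gCtl, at 31.8, 19.4 and 16.1 CPM in g1, and at 13.3 and 21.2 CPM in g2. Its first g1 library lay inside the gCtl range (-0.66, standard error 0.22, adjusted p = 0.0437). The calls of SLC9A7 and SLC9A8 in the libraries labelled knockdown were lost in 11 of 20 alternatives each.

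Of the plasma membrane exchangers, SLC9A4 differed between the guides. SLC9A4, a basolateral exchanger best known from the stomach, was at 11.98, 14.6, 11.8, 13.8 and 12.1 CPM in gCtl, at 13.8, 23.2 and 16.3 CPM in g1, and at 7.41 and 5.20 CPM in g2. It was lower in g2 than in gCtl (-1.04, standard error 0.27, adjusted p = 0.0115) and lower in g2 than in g1 (-1.50, standard error 0.29, adjusted p = 0.00747), with no overlap between g2 and the other groups. The difference from g1 was lost in 3 of 21 alternatives. SLC9A2, the apical exchanger NHE2, was at 14.5, 11.0, 20.6, 15.9 and 18.5 CPM in gCtl, at 14.0, 15.2 and 24.7 CPM in g1, and at 8.07 and 11.3 CPM in g2, and was not called (-0.72 with g2, standard error 0.30, adjusted p = 0.0832). The g2 calls of SLC9A4 and SLC9A8 were lost without g2 replicate 2 (adjusted p = 0.132 and 0.183), where the single library left was assumed to vary like the other groups.

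Cation-chloride cotransporters of SLC12 import chloride with sodium and potassium or export it with potassium. The potassium-chloride cotransporters KCC1 (SLC12A4) and KCC4 (SLC12A7), which extrude chloride and reduce cell volume, were lower with both guides. SLC12A4 (ENSG00000124067.16, chr16:67943474-67969601, minus strand) was at 19.0, 19.8, 21.5, 24.8 and 26.03 CPM in gCtl, at 10.7, 6.54 and 11.2 CPM in g1, and at 10.8 and 10.8 CPM in g2. Both guides lay well below gCtl, with means of 22.2 ± 3.08 (SD, n = 5) in gCtl, 9.47 ± 2.55 (SD, n = 3) in g1 and 10.8 CPM in g2. Its change was -1.14 on the log2 scale (standard error 0.18, adjusted p = 0.000746), and it was called in each of the 20 alternatives tried. SLC12A7 was at 14.7, 20.8, 15.4, 14.2 and 11.8 CPM in gCtl, at 8.83, 10.6 and 9.01 CPM in g1, and at 6.10 and 5.09 CPM in g2. Its 3 groups did not overlap, and g2 was lowest (-0.96 in the libraries labelled knockdown, standard error 0.23, adjusted p = 0.00836). It changed by -0.70 with g1 (standard error 0.22, adjusted p = 0.0359), a call lost in 10 of 21 alternatives, and by -1.46 with g2 (standard error 0.28, adjusted p = 0.00169), a call kept in all 21. The difference of -0.76 between g2 and g1 was not called (standard error 0.29, adjusted p = 0.153).

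NKCC1 (SLC12A2) was at 132, 145, 169, 153 and 155 CPM in gCtl, at 114, 113 and 92.3 CPM in g1, and at 187 and 142 CPM in g2. It lay below gCtl in all g1 libraries without reaching the fold limit (log2 fold change -0.51, standard error 0.14, adjusted p = 0.0219), and g2 overlapped gCtl. It was higher in g2 than in g1 (0.63, standard error 0.18, adjusted p = 0.0486), a call that was lost in 15 of 21 alternatives. SLC12A8, which was named after its values were seen, was lower with g1 at 7.94, 8.36 and 9.04 CPM against 14.2, 14.5, 14.8, 18.9 and 8.44 CPM in gCtl (-0.73, standard error 0.25, adjusted p = 0.0456), and gCtl replicate 5 lay among the g1 libraries. That call was lost in 10 of 21 alternatives, among them leaving out any g1 library or any of gCtl replicates 1 to 4 (adjusted p between 0.0753 and 0.127), and limma on log2(TPM + 1) gave -0.31 (adjusted p = 0.407). In g2 it was at 11.98 and 14.7 CPM.

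Kinases that act on these cotransporters were counted as a list of 8 genes, of which 7 were tested, 0 were lower and 2 were higher in the libraries labelled knockdown, with a median log2 fold change of 0.06. There 11.0% of all tested genes were called lower and 8.14% higher. WNK4, a kinase that activates the SPAK and OSR1 kinases, rose from a mean of 7.94 CPM in gCtl to 26.3 CPM in g1 and 18.3 CPM in g2 (log2 fold change 1.55, standard error 0.24, adjusted p = 0.000503). STK39, which is SPAK and phosphorylates NKCC1 and the KCC proteins, rose from 27.5 to 50.3 and 82.5 CPM (1.20, standard error 0.20, adjusted p = 0.000901). Neither gene's libraries overlapped gCtl. OXSR1 and WNK1, at means of 45.4 and 159 CPM in gCtl, were not called in any of the 4 comparisons, while WNK2 was lower with g2 (-1.01, standard error 0.28, adjusted p = 0.0172). Protein activity and phosphorylation were not measured.

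Among the other partners of ion transport, calls went both ways. Over all tested genes, the shares called in the libraries labelled knockdown were 11.0% lower and 8.14% higher. Of 5 tested PDZ scaffolds and cofactors of the exchangers, PDZK1, which anchors apical exchangers, was lower (log2 fold change -1.02, standard error 0.20, adjusted p = 0.00278) at 38.1 to 53.0 CPM in gCtl, 19.4 to 26.9 CPM in g1 and 11.1 to 23.3 CPM in g2. CHP1, a cofactor of sodium/proton exchangers, was lower with g1 alone (-0.68, standard error 0.18, adjusted p = 0.0172). EZR, ezrin of the brush border cytoskeleton, was higher (0.84, standard error 0.18, adjusted p = 0.00422). Of 6 tested genes of the sodium pump and the basolateral potassium channels, 1 was lower and 2 were higher, with a median of -0.24. ATP1B1, the beta subunit of the pump, was lower (-0.67, standard error 0.23, adjusted p = 0.0426) and FXYD3, a pump regulator, and KCNN4, a basolateral potassium channel, were higher (1.20 and 1.31, standard errors 0.37 and 0.38, adjusted p = 0.027 and 0.0226). By guide, ATP1B1 and FXYD3 were called with g2 (-1.15 and 1.88, adjusted p = 0.0048 and 0.000496) and not with g1 (-0.42 and 0.47, adjusted p = 0.176 and 0.274). FXYD3 was higher in g2 than in g1 (1.42, adjusted p = 0.0237). KCNN4 was called with g1 (1.52, adjusted p = 0.0185) and not with g2 (0.93, adjusted p = 0.172). Of 5 tested chloride channels and carbonic anhydrases 0 were lower and 1 was higher, with a median of 0.08. The one was CA12, a membrane-bound carbonic anhydrase (0.95, standard error 0.26, adjusted p = 0.0164). It was called with g1 (1.12, standard error 0.28, adjusted p = 0.0103) and not with g2 (0.66, standard error 0.32, adjusted p = 0.138). CFTR, the apical chloride channel, was at means of 57.3 CPM in gCtl, 63.2 CPM in g1 and 56.8 CPM in g2 and was not called (0.08, standard error 0.16, adjusted p = 0.746).

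Of the sodium/calcium exchangers, SLC8A1 and 3 SLC24 genes were tested and 0 were called in any of the 4 comparisons by edgeR. In the libraries labelled knockdown 2 had an unadjusted p under 0.05 and 1 was called by DESeq2. There edgeR called 11.0% of all tested genes lower and 8.14% higher. SLC8A1, NCX1, was named after its values were seen and had the largest log2 fold change among these 4 in the libraries labelled knockdown, at 1.11 (standard error 0.41, adjusted p = 0.0617), from 1.16 to 4.36 CPM in gCtl, 2.56 to 7.13 CPM in g1 and 3.92 and 9.90 CPM in g2. The SLC24 genes had a median log2 fold change of 0.22.

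Of the phosphate importers, SLC20A1 was higher with both guides. SLC20A1 (ENSG00000144136.10, chr2:112645857-112663827, plus strand), the sodium-phosphate cotransporter PiT1 that feeds most cells, was at 82.2, 54.2, 84.9, 71.0 and 75.8 CPM in gCtl, at 132, 121 and 193 CPM in g1, and at 135 and 138 CPM in g2. The lowest library labelled knockdown was above the highest gCtl library, with means of 73.6 ± 12.2 (SD, n = 5) in gCtl, 148 ± 38.7 (SD, n = 3) in g1 and 137 ± 2.13 (SD, n = 2) in g2. It changed by 0.97 on the log2 scale (standard error 0.16, adjusted p = 0.000858), with 1.01 (standard error 0.17) for g1 and 0.90 (standard error 0.19) for g2. Only 16.9% of its counts were on protein-coding transcripts, the leading transcript was annotated as a retained intron whose end lies 10855 bases from the 3′ end of the gene, and on protein-coding transcripts alone the change was 0.60 and was not called (adjusted p = 0.135). SLC20A2, its close relative PiT2, was at 12.7, 14.9, 17.8, 13.5 and 18.5 CPM in gCtl, at 16.0, 16.9 and 30.7 CPM in g1, and at 24.2 and 18.9 CPM in g2, and was not called (0.46, standard error 0.20, adjusted p = 0.109).

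SLC34A2, the apical phosphate transporter NaPi-IIb of the small intestine, was at 2.19, 2.08, 2.93, 2.68 and 4.82 CPM in gCtl, at 4.06, 4.96 and 5.35 CPM in g1, and at 1.53 and 4.85 CPM in g2, and was not called (log2 fold change 0.49, standard error 0.36, adjusted p = 0.342). Of its counts 83.7% lay on a transcript of 700 bases that ends 9055 bases before the 3′ end of the gene. Of 4 genes of phosphate export and sensing, all tested, 1 was lower and 0 were higher in the libraries labelled knockdown. Their median log2 fold change was -0.28, where 11.0% of all tested genes were called lower and 8.14% higher. IP6K1, an inositol phosphate kinase, was the lower one (-0.65, standard error 0.22, adjusted p = 0.0416). It was not called with g1 (-0.65, standard error 0.25, adjusted p = 0.0832) or g2 (-0.66, standard error 0.29, adjusted p = 0.109). XPR1, the phosphate exporter, was at means of 14.4, 13.7 and 15.8 CPM in gCtl, g1 and g2 (0.02, standard error 0.20, adjusted p = 0.956).

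Zinc exporters and vesicular loaders of SLC30 showed no call in the libraries labelled knockdown (0 of 8 tested by edgeR, median log2 fold change 0.11, with 3 at an unadjusted p under 0.05 and 1 called by DESeq2). Over all tested genes edgeR called 11.0% lower and 8.14% higher there. With g2 2 of the 8 were higher, against 10.7% of all tested genes. SLC30A4, ZnT4 of endosomal and secretory vesicles, was at 9.30, 8.76, 9.80, 5.53 and 10.3 CPM in gCtl, at 13.0, 11.3 and 8.44 CPM in g1, and at 17.6 and 22.1 CPM in g2, where both libraries lay above all others (log2 fold change 1.17, standard error 0.25, adjusted p = 0.00401). SLC30A5, ZnT5 of the Golgi, was at 11.5, 6.01, 13.3, 11.1 and 7.08 CPM in gCtl, at 5.56, 7.27 and 5.99 CPM in g1, and at 20.1 and 14.4 CPM in g2. It was higher in g2 than in g1 (1.47, standard error 0.33, adjusted p = 0.0184), and its change against gCtl was 0.82 with g2 (standard error 0.29, adjusted p = 0.0491) and -0.65 with g1, which was not called (standard error 0.28, adjusted p = 0.117). The g2 call against gCtl was kept in 5 of 21 alternatives. SLC30A1, the plasma membrane exporter ZnT1 that metal-bound MTF1 induces, was at 8.25, 10.8, 9.77, 7.46 and 8.62 CPM in gCtl, at 5.50, 7.39 and 5.48 CPM in g1, and at 7.71 and 5.96 CPM in g2, and was not called (-0.50, standard error 0.21, adjusted p = 0.0976).

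Zinc importers of SLC39 held 3 lower and 1 higher genes among 11 tested in the libraries labelled knockdown, with a median log2 fold change of -0.39, where 11.0% of all tested genes were called lower and 8.14% higher. SLC39A4, ZIP4, the apical importer of dietary zinc that is mutated in acrodermatitis enteropathica, was the higher one. It was at 31.5, 17.4, 21.8, 19.9 and 13.9 CPM in gCtl, at 43.6, 52.5 and 57.7 CPM in g1, and at 25.7 and 76.1 CPM in g2. The g1 libraries all lay above gCtl, while the first g2 library lay inside the gCtl range. In the libraries labelled knockdown the change was 1.30 on the log2 scale (standard error 0.26, adjusted p = 0.00288), and it was 1.31 (standard error 0.28, adjusted p = 0.00502) with g1. With g2 it was 1.30 (standard error 0.32, adjusted p = 0.00752) and fell to 0.31 without g2 replicate 2 (adjusted p = 0.549). Of its counts 98.8% were on a transcript annotated as a retained intron that ends 653 bases before the 3′ end of the gene, and on protein-coding transcripts alone it did not pass the filter.

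SLC39A1, ZIP1, a widely expressed importer of the plasma membrane, was at 31.7, 24.2, 23.3, 35.4 and 9.19 CPM in gCtl, at 10.2, 9.56 and 9.06 CPM in g1, and at 10.6 and 6.88 CPM in g2. The libraries labelled knockdown lay below 4 gCtl libraries and around the fifth. Its log2 difference was -1.42 (standard error 0.28, adjusted p = 0.00292) and was called in each of the 20 alternatives, with -1.64 when gCtl replicate 5 was left out. SLC39A11, ZIP11 of the Golgi and nucleus, was at 6.25, 6.79, 4.37, 3.37 and 5.81 CPM in gCtl, at 3.50, 2.32 and 1.83 CPM in g1, and at 2.87 and 2.64 CPM in g2 (-1.02, standard error 0.30, adjusted p = 0.023), where the first g1 library overlapped the lowest gCtl library. It was also called with g1 (-1.07, standard error 0.36, adjusted p = 0.0475), a call lost in 10 of 21 alternatives, and not with g2 (-0.95, standard error 0.41, adjusted p = 0.0995). SLC39A13, ZIP13 of intracellular vesicles, was at 2.25, 2.94, 5.23, 2.65 and 2.29 CPM in gCtl, at 1.0, 0.844 and 1.95 CPM in g1, and at 1.97 and 0.581 CPM in g2. It passed the filter only through 2 gCtl libraries, so its difference of -1.26 (standard error 0.42) is given as a description, and in the edgeR fit without a filter on low counts it was not called (-1.26, standard error 0.44, adjusted p = 0.0543).

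Further SLC39 genes were called with a single guide. SLC39A14, ZIP14, which also carries iron and manganese, was lower with g1 (log2 fold change -0.72, standard error 0.22, adjusted p = 0.0315) at 36.7, 28.3 and 38.8 CPM against 74.2, 45.9, 61.1, 68.8 and 36.4 CPM in gCtl, and its g2 libraries were at 60.0 and 41.4 CPM. gCtl replicate 5 lay within the g1 range. The g1 call of SLC39A14 was kept in 13 of 21 alternatives and was lost without any single g1 library (adjusted p between 0.052 and 0.129). SLC39A5, the basolateral importer ZIP5, was at 20.0, 11.9, 24.3, 15.9 and 17.9 CPM in gCtl, at 19.7, 14.8 and 13.4 CPM in g1, and at 11.7 and 9.01 CPM in g2, and was called lower with g2 (-0.81, standard error 0.28, adjusted p = 0.0448). SLC39A6, ZIP6 of the plasma membrane, was at 16.7, 14.1, 16.9, 18.5 and 19.5 CPM in gCtl, at 14.3, 16.3 and 15.3 CPM in g1, and at 12.7 and 7.12 CPM in g2, also lower with g2 (-0.80, standard error 0.25, adjusted p = 0.0283). Both g2 calls were lost without g2 replicate 2, and of 21 alternatives 11 kept that of SLC39A5 and 17 that of SLC39A6. SLC39A7, ZIP7, which releases zinc from the endoplasmic reticulum, was at 41.5, 48.5, 47.1, 35.6 and 64.0 CPM in gCtl, at 68.7, 61.4 and 44.5 CPM in g1, and at 65.1 and 81.1 CPM in g2. Its g2 libraries lay just above gCtl (0.62, standard error 0.21, adjusted p = 0.0385), and on protein-coding transcripts alone, which held 44.2% of its counts, the change was -0.32. The g2 call of SLC39A7 was kept in 11 of 21 alternatives, and by library totals the change was 0.47 (adjusted p = 0.123). Tests of g2 against g1 gave 0 calls among the 11 SLC39 genes by edgeR and by DESeq2, with 1 at an unadjusted p under 0.05.

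The zinc sensor and metallothioneins, the cytosolic zinc buffers whose genes follow cell zinc, were sparsely detected, with 2 of 9 genes tested and 0 called in any of the 4 comparisons by edgeR or DESeq2, and 1 had an unadjusted p under 0.05 in the libraries labelled knockdown. MTF1 was at means of 20.5 CPM in gCtl, 23.6 CPM in g1 and 16.9 CPM in g2 (log2 fold change 0.04, standard error 0.20, adjusted p = 0.916). MT2A was at 3.34 to 14.5 CPM in gCtl, 3.67 to 4.22 CPM in g1 and 1.02 to 7.53 CPM in g2 (-0.94, standard error 0.43, adjusted p = 0.125).

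**Figure D4:**
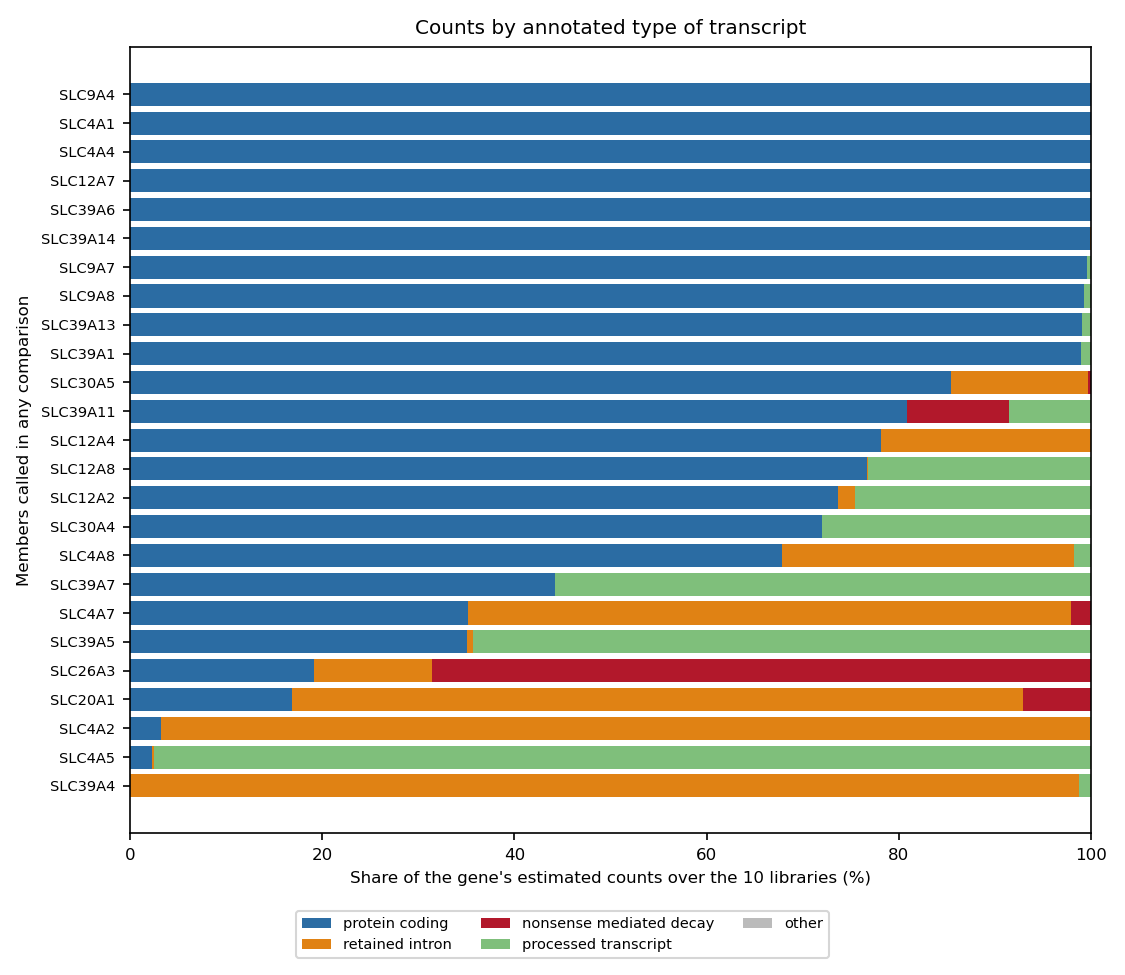
Share of the estimated counts of 25 of the 27 genes called in any comparison (x axis, percent over the 10 libraries) on transcripts annotated as protein-coding, retained intron, nonsense-mediated decay or processed transcript. SLC39A4, SLC4A5, SLC4A2, SLC20A1 and SLC26A3 hold less than 20% on protein-coding transcripts.

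The place of the counts in each gene was read from the annotated transcripts. For 39 of the 48 tested genes the leading transcript ended within 10 bases of the 3′ end of the gene. For 14 of the 48 under 50% of the counts lay on protein-coding transcripts. Among them were the genes called higher in the libraries labelled knockdown, except SLC4A1. Of the genes called higher with g2 alone, SLC4A4, SLC30A4 and SLC30A5 held 100%, 72.0% and 85.4% on protein-coding transcripts and SLC39A7 44.2%. For 32 of the 48 the gene sum was not whole (by more than 0.01) in at least 1 library, as happens when reads are divided between genes. SLC39A1 overlaps AL358472.7 on the same strand and SLC12A4 lies next to LCAT on the same strand at the 3′ end. SLC30A4 and SLC39A5 have AC025580.2 and ANKRD52 on the opposite strand at theirs. With protein-coding transcripts alone, 39 of the genes were tested and 6 were called in the libraries labelled knockdown, 5 lower and 1 higher. Over all genes tested in that setting, 1790 of 10268 were called, 58.7% of them lower.

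Among genes below the filter, a bound on the fold could be given for 4 in which the libraries of a group held at most 3 counts each, taken as the floor per library. SLC4A10, a sodium bicarbonate transporter of neurons, had 30 counts in all, with 8, 1 and 12 in the g1 libraries and 5 and 3 in g2. By group means it was at least 1.63-fold higher in g1 and at least 1.08-fold higher in g2 than gCtl. For SLC26A7 the bound for g2 was 1.02-fold, on 7 counts in the first g2 library and 0 in the second, so that it rests on a single library. By group means SLC4A3 and SLC9A5 were at least 1.10-fold and 1.14-fold lower in g2. In gCtl they held 5, 2, 2, 3 and 0 counts and 2, 6, 4, 2 and 0 counts. The bound of SLC4A3 thus rests on gCtl replicate 1, its only gCtl library above 3 counts. These bounds cover counting error only.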

How the data were processed

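The authors prepared QuantSeq 3′ libraries from polyA RNA, and the deposited tables hold the estimated counts that kallisto (version 42.5 in the submitters' processing notes) assigned to each GENCODE release 24 transcript on GRCh38, not normalized. Here the estimated counts were summed per gene and rounded. RPM was scaled to the library totals, which range from 3838803 to 8730468, and 1 count is 0.115 to 0.26 RPM.

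Protein-coding genes above 3 RPM in 20% of the samples (11640 genes) were tested with edgeR 4.0.16 (glmQLFit and glmQLFTest, TMM) in R 4.3.3, with Benjamini-Hochberg adjustment over all of them. The libraries labelled knockdown were compared with gCtl in a fit of 2 groups, and g1, g2 and gCtl with each other in a fit of 3 groups. LHFPL3-AS2 was tested in fits that included genes of all biotypes. The thresholds were 0.05 for the adjusted p and 1.5-fold for the difference. Standard errors are the log2 fold change over the square root of F. The scripts were tested on simulated data.

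The members and lists were chosen with earlier results of these data known. Named with values were the 25 members with the smallest adjusted p among those called in any comparison and 19 members known from intestinal transport (34 in all). Values of some members are not reported here, and counts and medians over the members include them. SLC12A8, the one member called that this left out, and SLC8A1 and SLC39A10 were named after their values were seen. Alternatives were DESeq2 1.42.0 and its size factors, library totals, no filter, filterByExpr, protein-coding transcripts alone, limma 3.58.1 on log2(TPM + 1) and log2(RPM + 1), glmTreat, no fold limit, only the groups compared and each library left out. Gene positions are those of GENCODE release 29, also on GRCh38, and promoter windows those of RefSeq. Guide and protein sequences were not used here.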

Additional observations from a re-analysis of the deposited data

Results flagged for a closer look

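SLC39A13 in gCtl replicate 3 was at 5.23 CPM, while the other 4 gCtl libraries lay between 2.25 and 2.94 CPM, a gap that passed Dixon's 95% limit. It was the only such value among 32 named genes examined, and chance flags about 1 in 20. The call of SLC39A13 in the libraries labelled knockdown was lost in 10 of 20 alternatives. These were no filter, protein-coding transcripts alone, glmTreat and leaving out any of gCtl replicates 1 to 4, g1 replicate 1 or 2, or g2 replicate 2.

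The difference between the guides passed the test for 3 genes, with log2 fold changes of g2 against g1 of -1.50 for SLC9A4, 0.63 for SLC12A2 and 1.47 for SLC30A5. All libraries of g2 lay on one side of all libraries of g1 for each of the 3.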

How the results depend on the processing

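The count of members called was 15 in the libraries labelled knockdown, 11 with g1, 20 with g2 and 3 for g2 against g1. On protein-coding transcripts alone, which tested 39 members, it was 6, 3 and 9 for the first 3, and by glmTreat against a 1.5-fold change, a stricter hypothesis by construction, 5, 3, 5 and 0 (0 for g2 against g1, with 5 members at an unadjusted p under 0.05 by glmTreat and 5 called by DESeq2). Over all genes, protein-coding transcripts alone gave 1790, 1532 and 2073 calls among 10268, and glmTreat gave 488, 506, 802 and 92 among 11640. Limma on log2(TPM + 1) called 7 with g1, and the fit of only the groups compared called 1 for g2 against g1. The cause of the last 2 was not tested. When libraries were left out singly the counts ranged from 10 to 17, from 7 to 12, from 8 to 20 and from 2 to 5. The count of 8 came without g2 replicate 2, the counts of 7 without gCtl replicate 1 or g1 replicate 2, and the count of 5 without g2 replicate 1. For g2 against g1 DESeq2 called 5 where edgeR called 3, and the other settings gave counts within 1.5 times the main ones. SLC39A7 with g2 reversed from 0.62 to -0.32 on protein-coding transcripts alone, the only called value that changed sign. Of the calls, 5 of 15, 3 of 11, 3 of 20 and 0 of 3 were kept in each alternative that tested the gene. Genes of a few counts per library, such as SLC26A3, are limited by depth. No paired analysis was possible because the labels carry no replicate numbers.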
